A study of Homo sapiens with 2 samples.

Results

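In an untreated culture of SH-SY5Y cells, 266 of 1920 kept cells (13.9%) made up the group in G2 and mitosis, out of 2879 cells in the table. SH-SY5Y, or SY5Y, is an established human neuroblastoma line, a subclone of SK-N-SH with noradrenergic features. Its cells were neither synchronized nor treated, and a single culture had been divided over 2 flasks, SplitA and SplitB, and grown on before harvest. The cells of each flask were labelled with an antibody that carries a DNA barcode (a hashtag), pooled and run as 1 CITE-seq experiment, in which the 3′ ends of mRNA and the hashtags are counted as unique molecular identifiers (UMIs). Both flasks thus hold the same line without treatment, and their cells are told apart by the hashtag barcode. These barcodes, read from the deposited list of hashtags, are shown because the group was compared with the other cells in each flask apart, and all their bases are in capitals.
SplitA hashtag: GTCAACTCTTTAGCG
SplitB hashtag: TGATGGCCTATTGGG

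The members were chosen by measured values. A cell was kept when its own hashtag was at least 3 times the other and the other stayed within a fixed count limit, when it had at least 1000 genes, and when the 13 mitochondrial mRNAs took less than 15% of its UMIs. The kept cells, 829 of SplitA and 1091 of SplitB, were ranked by the summed UMIs per 10000 of 8 genes, CCNB1, CDC20, PLK1, CENPF, UBE2C, TPX2, PTTG1 and HMMR. The top 15% held 288 cells, of which 22 also lay in the top 10% for the histone H4 gene H4C3 and were left out. The remaining 266 cells, 113 of SplitA and 153 of SplitB, formed the G2/M group, and the 1654 others the comparison. The choice fixes that the sum of the 8 genes is high, so these genes are described and not tested, and they were kept out of all counts below together with H4C3. Cells of a flask are not replicates of a condition and every gene was read in the same cells as the score, so no difference below carries a test. Levels and shares are given per flask unless the pooling of flasks is stated, and intervals are exact 95% intervals that cover counting error only.

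In G2 the chromosomes are already copied, and cyclin B builds up with the kinase CDK1 until the cell enters mitosis. The chromosomes are then condensed, attached to the spindle through kinetochores and held until the spindle checkpoint lets the anaphase-promoting complex (APC/C) mark securin and cyclin B for breakdown. Most of the genes involved are transcribed late in the cycle, under the DREAM and B-MYB-MuvB complexes and FOXM1, which are brought to a short promoter element called the CHR, and under NF-Y, which binds CCAAT boxes.

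The 8 ranking genes cover these steps. CCNB1 encodes cyclin B1, PLK1 a kinase of mitotic entry, and CDC20 the APC/C activator. UBE2C is an enzyme that starts ubiquitin chains on APC/C substrates, and PTTG1 is securin, one of those substrates. TPX2 and HMMR act in spindle assembly, and CENPF sits at kinetochores. The score ran from 14.3 to 66.1 UMIs per 10000 in the SplitA members (median 25.3) and from 14.3 to 71.8 in those of SplitB (median 24.0), against medians of 2.18 and 2.29 in the other cells. A member held a median of 18 UMIs of the 8 genes in SplitA and 17 in SplitB, while 29.1% and 28.6% of the other cells had none. The last cell inside the limit had a score of 14.26 and the first outside 14.21, from 12 and 10 UMIs, so that there was no gap at the limit.

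CENPF, UBE2C and PTTG1 together gave most of the UMIs of the score, with 30.9%, 24.8% and 23.1% of them in SplitA and 27.8%, 24.7% and 25.1% in SplitB. No member rested on a single gene, and all 8 were found in 9 members of SplitA and 11 of SplitB, against 1 and 0 of the other cells. Levels are given as CPM, the UMIs of a gene out of 1000000 UMIs of the summed cells. CCNB1 measured 113 and 119 CPM in the members of SplitA and SplitB, and 12.2 and 9.48 in the other cells. PLK1 measured 129 and 117 against 9.93 and 8.27, and CENPF 868 and 735 against 114 and 109. The choice fixes the sum of the 8 genes, and each of them was higher in the group in both flasks.

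**Figure D1:**
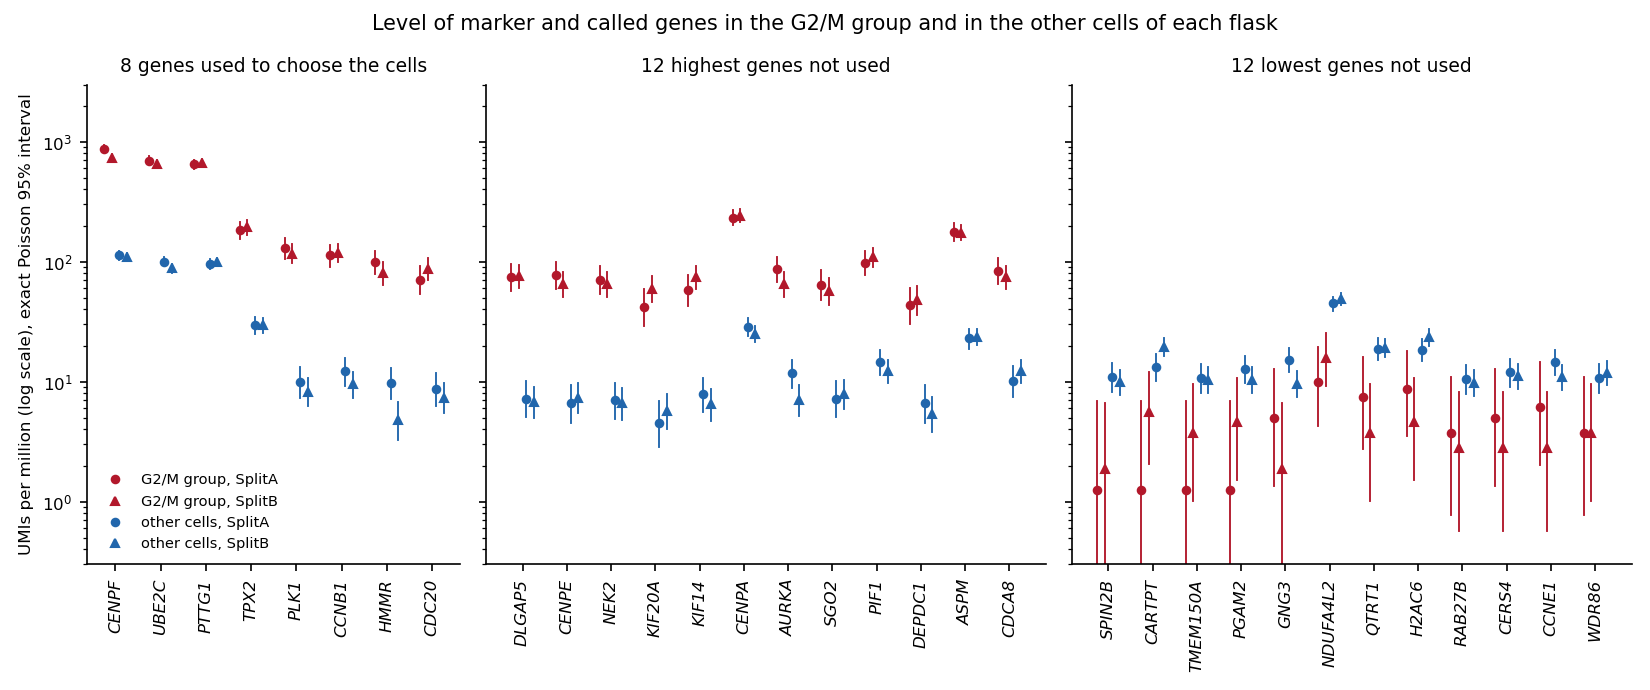
CPM (log axis) of the 8 ranking genes, the 12 highest and the 12 lowest genes outside the ranking, in the G2/M group (red) and the other cells (blue) of SplitA (circles) and SplitB (triangles), with exact Poisson 95% intervals, some of which run below the axis. The 12 highest genes lie clear of the other cells in both flasks, while the 12 lowest rest on 1 to 17 UMIs in the group and for 9 of them the intervals meet those of the other cells in at least 1 flask.

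The label was checked on genes that the rule did not use. Seurat assigns each cell a phase from 2 gene lists, and it was run with the 5 ranking genes of its G2M list taken out, which left 49 G2M and 43 S genes. It called 98 of 113 SplitA members G2M (86.7%, exact binomial interval 79.1 to 92.4) and 135 of 153 SplitB members (88.2%, 82.0 to 92.9), against 14.8% and 15.8% of the other cells. Of the remaining members, 11 in each flask were called S and 4 and 7 were called G1. The members made up 48.0% and 47.7% of all G2M calls of their flask, so the other cells hold many G2M calls too. RNA free in the droplets can enter such calls and was not measured here.

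The share of kept cells in the group was 13.6% in SplitA (11.4 to 16.2) and 14.02% in SplitB (12.02 to 16.23), and these intervals overlap almost fully. The rule took the top 15% of the kept cells of both flasks together, so it sets the size of these shares. They are not a measured fraction of cells in G2 and mitosis. Members had a median of 7037 UMIs against 6222 in the other cells of SplitA, a ratio of 1.13, and 6742 against 6573 in SplitB, a ratio of 1.03. The mean of these ratios, 1.08, became 0.990 without the mitochondrial limit. The distributions overlapped widely, since 61.1% and 51.6% of members lay above the median of the other cells. Members made up the largest share in the deepest quartile of each flask, 19.3% (14.2 to 25.4) and 17.2% (12.9 to 22.2), and 12.5% and 15.02% in the shallowest, with intervals that overlap. The number of genes per cell, read after thinning each cell to 2000 UMIs, was 910 against 851 in SplitA and 921.5 against 851.5 in SplitB (medians, 1 SplitB member under 2000 UMIs left out), and 2113 against 1857 and 2160 against 1915 before thinning. At equal depth 85.0% and 84.2% of members lay above the median of the other cells.

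The hashtag count, read from a library of its own and not used by the score, had medians of 1187 against 1049.5 in SplitA and 1113 against 1043 in SplitB, ratios of 1.13 and 1.07. Mitochondrial mRNAs took a median of 8.51% of UMIs in members and 8.46% in other cells of SplitA, and 8.28% and 8.64% in SplitB. Ribosomal protein mRNAs took a smaller share, 31.1% against 34.6% in SplitA and 30.6% against 34.4% in SplitB, and 23.9% and 23.5% of members lay above the other cells' median. Of 78 ribosomal protein genes measured, none was 1.5-fold lower, but 73 had a ratio under 1 in both flasks, with a median log2 ratio of -0.14 and -0.18.

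The members held 805344 UMIs and the other cells 4835203 in SplitA, and 1077173 and 6646964 in SplitB. Of 7567 genes with at least 50 UMIs over the kept cells of each flask, 524 (6.92%) were at least 1.5-fold higher in the members of both flasks and 169 (2.23%) at least 1.5-fold lower. The difference reached 2-fold for 159 and 29 of them, and 4-fold upwards for 36. In SplitA alone 1229 of these genes were 1.5-fold higher and 590 lower, and in SplitB alone 1066 and 461. Since the same cells gave the score and the counts, these percentages describe the split. The median log2 ratio of all tested genes was 0.10 in SplitA and 0.13 in SplitB, and ratios should be read against that shift. With TMM factors of edgeR, which lower each log2 ratio by 0.16, 289 genes were higher and 301 lower, and with ratios centred on the median of the tested genes 334 and 257, so that the balance between the directions rests on the scaling. The counting intervals of members and other cells lay apart in both flasks for 253 of the higher genes and 23 of the lower ones.

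**Figure D2:**
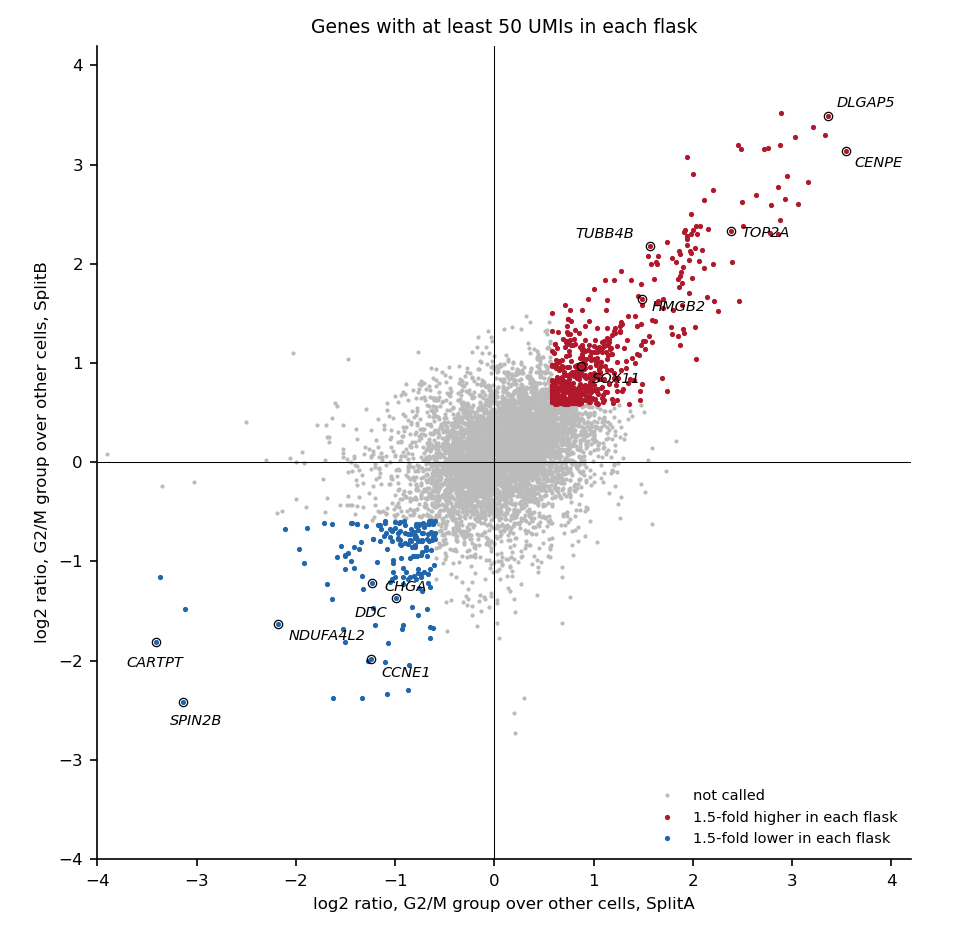
Log2 ratio of the G2/M group over the other cells in SplitA (x axis) and SplitB (y axis) for genes with at least 50 UMIs in each flask, with genes 1.5-fold higher in both in red, genes 1.5-fold lower in both in blue and others in grey. Most genes form a cloud around 0, from which genes of mitosis such as DLGAP5 and CENPE extend along the diagonal, and 54 genes passed 1.5-fold in opposite directions in the 2 flasks.

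Of the 12 genes with the highest ratios, 9 had under 50 UMIs in the other cells of a flask, as had 121 of the 524 higher genes, so that they were measured only through their level in the members. The gene lists below hold such genes too, so that their counts of higher genes rest in part on them. How many each list holds was not counted. DLGAP5, a spindle protein that stabilizes kinetochore fibres, measured 74.5 (56.9 to 95.9) and 76.1 (60.5 to 94.5) CPM in the members and 7.24 and 6.77 in the other cells, a 10.3-fold and 11.2-fold difference. CENPE, the kinesin that moves chromosomes to the spindle equator, measured 77.0 and 65.0 against 6.62 and 7.37. NEK2, a kinase that parts the centrosomes, measured 70.8 and 65.0 against 7.03 and 6.62. The groups' intervals did not overlap in either flask for these 3 genes. Next came the kinesins KIF20A and KIF14, the centromeric histone CENPA, the kinase AURKA, the cohesin protector SGO2, the helicase PIF1, DEPDC1, the spindle pole protein ASPM and the passenger complex subunit CDCA8, with mean log2 ratios from 3.30 down to 2.83. CENPA had 188 and 260 UMIs in the members, or 233 (201 to 269) and 241 (213 to 273) CPM against 28.5 and 24.97. It was found in 66.4% and 63.4% of members and 13.5% and 13.6% of other cells, and at 2000 UMIs per cell in 33.6% of members of each flask and 4.2% and 3.1% of other cells.

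Stretches of 150 bases before the gene start are shown for 3 ranking genes (PLK1, CDC20, HMMR), for CCNB2, for 4 of the 12 highest genes and for CHGA, a gene that was lower, so that the letters of late cell cycle promoters can be read beside the levels. They come from RefSeq promoters of GRCh38.p14, 5′ to 3′ on the strand of the gene, PLK1 at chr16:23678739-23678888 on the plus strand, CDC20 at chr1:43358831-43358980 on the plus strand, HMMR at chr5:163460482-163460631 on the plus strand, CCNB2 at chr15:59104996-59105145 on the plus strand, CDCA8 at chr1:37692366-37692515 on the plus strand, CENPA at chr2:26785906-26786055 on the plus strand, DLGAP5 at chr14:55191586-55191735 on the minus strand, KIF20A at chr5:138178962-138179111 on the plus strand, CHGA at chr14:92923000-92923149 on the plus strand. Capitals mark CCAAT and the CHR forms TTTGAA and TTCGAA on either strand, so that ATTGG and TTCAAA are the same motifs read from the other strand.
PLK1: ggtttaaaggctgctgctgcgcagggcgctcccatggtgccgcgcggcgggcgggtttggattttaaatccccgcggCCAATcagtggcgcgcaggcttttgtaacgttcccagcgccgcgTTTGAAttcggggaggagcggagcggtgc
CDC20: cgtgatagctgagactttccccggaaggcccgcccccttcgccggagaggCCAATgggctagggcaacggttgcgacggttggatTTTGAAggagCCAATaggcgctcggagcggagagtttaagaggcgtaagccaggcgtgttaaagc
HMMR: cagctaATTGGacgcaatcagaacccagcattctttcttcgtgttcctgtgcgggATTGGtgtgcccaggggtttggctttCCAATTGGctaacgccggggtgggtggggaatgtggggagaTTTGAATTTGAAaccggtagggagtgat
CCNB2: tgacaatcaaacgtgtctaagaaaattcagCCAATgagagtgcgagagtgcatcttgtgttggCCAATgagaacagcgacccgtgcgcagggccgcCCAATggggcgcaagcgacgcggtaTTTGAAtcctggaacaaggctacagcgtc
CDCA8: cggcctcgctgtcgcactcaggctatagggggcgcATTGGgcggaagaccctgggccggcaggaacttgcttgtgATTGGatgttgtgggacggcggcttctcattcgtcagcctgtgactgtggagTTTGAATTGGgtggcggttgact
CENPA: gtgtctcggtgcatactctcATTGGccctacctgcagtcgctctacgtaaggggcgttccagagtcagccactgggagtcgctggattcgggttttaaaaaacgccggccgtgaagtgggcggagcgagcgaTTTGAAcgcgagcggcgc
DLGAP5: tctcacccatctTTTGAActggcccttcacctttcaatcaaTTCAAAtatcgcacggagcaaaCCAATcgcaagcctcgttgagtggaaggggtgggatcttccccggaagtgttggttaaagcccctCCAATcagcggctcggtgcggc
KIF20A: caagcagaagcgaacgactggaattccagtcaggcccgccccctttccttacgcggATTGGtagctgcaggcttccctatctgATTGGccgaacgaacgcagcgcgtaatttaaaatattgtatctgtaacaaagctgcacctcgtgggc
CHGA: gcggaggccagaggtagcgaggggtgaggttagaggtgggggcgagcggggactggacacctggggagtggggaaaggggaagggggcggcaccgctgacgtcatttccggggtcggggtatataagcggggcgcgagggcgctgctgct
PLK1 has CCAAT 73 bases and TTTGAA 29 bases before the start, and CCNB2 has CCAAT at 120, 87 and 54 bases and TTTGAA at 29. HMMR holds TTTGAA at 28 and 22 bases and a CCAAT that overlaps its own reverse copy, and in CDCA8 TTTGAA at 23 bases overlaps ATTGG at 18. KIF20A has CCAAT at 94 and 67 bases on the other strand and neither CHR form in the window, and CHGA has none of the 3 motifs. UBE2C, TPX2 and AURKA were not printed.

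Over all genes, the window of 250 bases before to 50 after the start was searched on both strands in 674 promoters of 438 matched genes among the 524 higher ones, 186 of 138 among the 169 lower ones and 9239 of 6270 among the 7567 tested. TTTGAA stood in 21.4% of promoters of higher genes, 7.53% of lower genes and 9.85% of all tested genes, against 15.2% of all 35116 promoters in the table. TTCGAA stood in 4.15%, 0.538% and 1.75%, against 1.45%. CCAAT stood in 44.8%, 33.3% and 35.4%, against 34.6%. A CHR form together with CCAAT was found in 15.3%, 3.76% and 4.86%, against 6.38%. Among the 36 genes that were 4-fold higher, of which 31 matched 35 promoters, 65.7% held TTTGAA, 80.0% CCAAT and 60.0% both a CHR form and CCAAT. Genes with several starts count once per start, and a match says only that the letters are there.

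Of 14 measured genes of entry into mitosis, activators and inhibitors alike, 10 were higher and none lower, beside 6.92% and 2.23% of all tested genes. The list had a median log2 ratio of 1.89 against 0.11 for all tested genes. CCNB2, the second B-type cyclin, measured 73.3 (55.8 to 94.5) and 89.1 (72.2 to 109) CPM in the members of SplitA and SplitB against 17.4 and 17.2 in the other cells. CCNA2, cyclin A2, measured 72.0 and 93.8 against 17.6 and 18.1, and CDK1 itself 83.2 and 90.1 against 27.3 and 25.1. The CDK-binding proteins CKS2 and CKS1B were 4.27-fold and 4.40-fold and 2.53-fold and 2.36-fold higher. The activating phosphatase CDC25B measured 94.4 and 108 against 24.6 and 22.7, and the inhibitory kinase WEE1 47.2 and 47.3 against 23.2 and 24.1. CDC25C and BORA stayed under 50 UMIs in a flask and were not counted. The 4 measured genes that did not reach 1.5-fold were ENSA and ARPP19, substrates in the pathway that restrains the phosphatase PP2A, the kinase PKMYT1 and the phosphatase CDC25A, with mean log2 ratios from -0.16 to 0.22.

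Of 6 measured transcription factors of these genes 1 was higher and none lower, beside 6.92% and 2.23% of all tested genes. This was FOXM1, with 138 (113 to 166) and 136 (114 to 159) CPM against 59.1 and 52.96. MYBL2, which encodes B-MYB, measured 113 and 149 against 101 and 102, log2 ratios of 0.16 and 0.56. E2F1, the G1/S activator, measured 60.8 and 63.1 against 92.0 and 86.1, log2 ratios of -0.60 and -0.45, and it passes as lower in both flasks with TMM factors. The list median was 0.47.

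Motors and other proteins of the spindle had 21 of 24 measured genes higher, beside 6.92% of all tested genes. DLGAP5 is among the 21, though it had under 50 UMIs in the other cells of each flask. The list had a median log2 ratio of 1.99, and the 3 others, NUMA1, RAN and RCC1, had ratios from 0.34 to 0.44. The bipolar kinesin KIF11 measured 52.2 and 52.0 against 14.3 and 14.1, and PRC1, which bundles microtubules of the central spindle, 111 and 141 against 33.1 and 30.4. The chromokinesin KIF4A and the depolymerizing kinesin KIF2C had mean log2 ratios of 2.82 and 2.67. Cytokinesis and the chromosomal passenger complex had 11 of 13 higher, beside 6.92% of all tested genes, with a median of 2.00. BIRC5, survivin, measured 486 (439 to 536) and 483 (442 to 526) against 124 and 117. ECT2, which activates RhoA at the cleavage site, was 7.27-fold and 4.94-fold higher, and the kinase AURKB had a mean log2 ratio of 1.52. The 2 not called were SEPTIN9 and SEPTIN2, and SEPTIN7 was called but lost with TMM factors.

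Of the centromere and kinetochore genes, 21 of 27 were higher and none lower, beside 6.92% and 2.23% of all tested genes. The list had a median of 1.11. Below CENPE, CENPA and SGO2, the outer kinetochore genes KNL1 and NUF2 and the shugoshin gene SGO1 had mean log2 ratios of 2.45, 2.11 and 1.85. The 6 not called were CENPK, CENPM, CENPU, CENPX, CENPH and MIS18A, with ratios from 0.02 for CENPX to 0.92 for MIS18A, and CENPN, SPC24 and SKA1 are lost with TMM factors. The spindle checkpoint and APC/C list had 6 of 20 genes higher and none lower, beside 6.92% and 2.23% of all tested genes. Its median was 0.41. The checkpoint genes BUB1B, MAD2L1 and BUB3 were higher, and so were FZR1, the late APC/C activator, the APC/C subunit CDC27, and UBE2S, which extends the ubiquitin chains that UBE2C starts. MAD1L1, which recruits MAD2 to kinetochores, had the lowest mean log2 ratio of the list, -0.45, and was not called. BUB1B measured 41.0 and 59.4 against 7.45 and 6.47, and UBE2S 1742 and 1589 against 537 and 508. The other 11 core APC/C subunits measured did not reach 1.5-fold in both flasks, with mean log2 ratios from -0.35 to 0.58.

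Chromosome condensation and cohesion had 11 of 21 genes higher, beside 6.92% of all tested genes, with a median of 0.66. TOP2A, which untangles sister chromatids, measured 406 (363 to 453) and 399 (362 to 439) against 78.0 and 79.1, and it was found in 78.8% and 75.8% of members and 27.9% and 30.7% of other cells. At 2000 UMIs per cell these shares were 46.9% and 46.1% against 12.7% and 10.98%. MKI67, the surfactant of mitotic chromosomes known as Ki-67, measured 375 and 330 against 81.3 and 82.7. The condensin ATPase SMC4 was 3.24-fold and 2.94-fold higher, while the condensin II subunits NCAPD3, NCAPH2 and NCAPG2 had mean log2 ratios of 0.44, 0.43 and 0.60 and were not called. SMC2 and PDS5A are lost with TMM factors. Of the nuclear envelope genes, 5 of 12 were higher, beside 6.92% of all tested genes. The 5 included LBR and LMNB1, the lamin B receptor and lamin B1, with mean log2 ratios of 1.64 and 1.43. LMNB2 is lost with TMM factors. LMNA, EMD and SUN1, also of the envelope, had ratios of 0.49, -0.12 and 0.02.

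Histone variants and HMG proteins, which package chromatin outside the replication-dependent histones, had 7 of 15 genes higher, beside 6.92% of all tested genes. The list had a median of 0.50. HMGB2 measured 1875 (1782 to 1972) and 1950 (1867 to 2035) against 670 and 622, and H2AX, the variant phosphorylated at DNA breaks, 179 and 174 against 83.1 and 74.3. HMGB3 was 1.62 higher on the log2 scale, and HMGN2, H2AZ1, HMGB1 and H2AZ2 between 0.68 and 0.81, of which H2AZ1, HMGB1 and H2AZ2 fall under 1.5-fold in a flask with TMM factors. The H3.3 genes H3-3A and H3-3B had ratios of 0.13 and 0.12. Among the tubulins and tubulin-binding proteins, 4 of 11 measured genes were higher, beside 6.92% of all tested genes, with a median of 0.55. TUBB4B measured 191 (162 to 224) and 265 (235 to 297) against 64.3 and 58.5, TUBA1B 1376 and 1578 against 826 and 810, and TUBB 1562 and 1565 against 917 and 912. TUBA1B is lost with TMM factors. Tubulin genes are close copies of each other, so that reads may be shared between them.

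**Figure D3:**
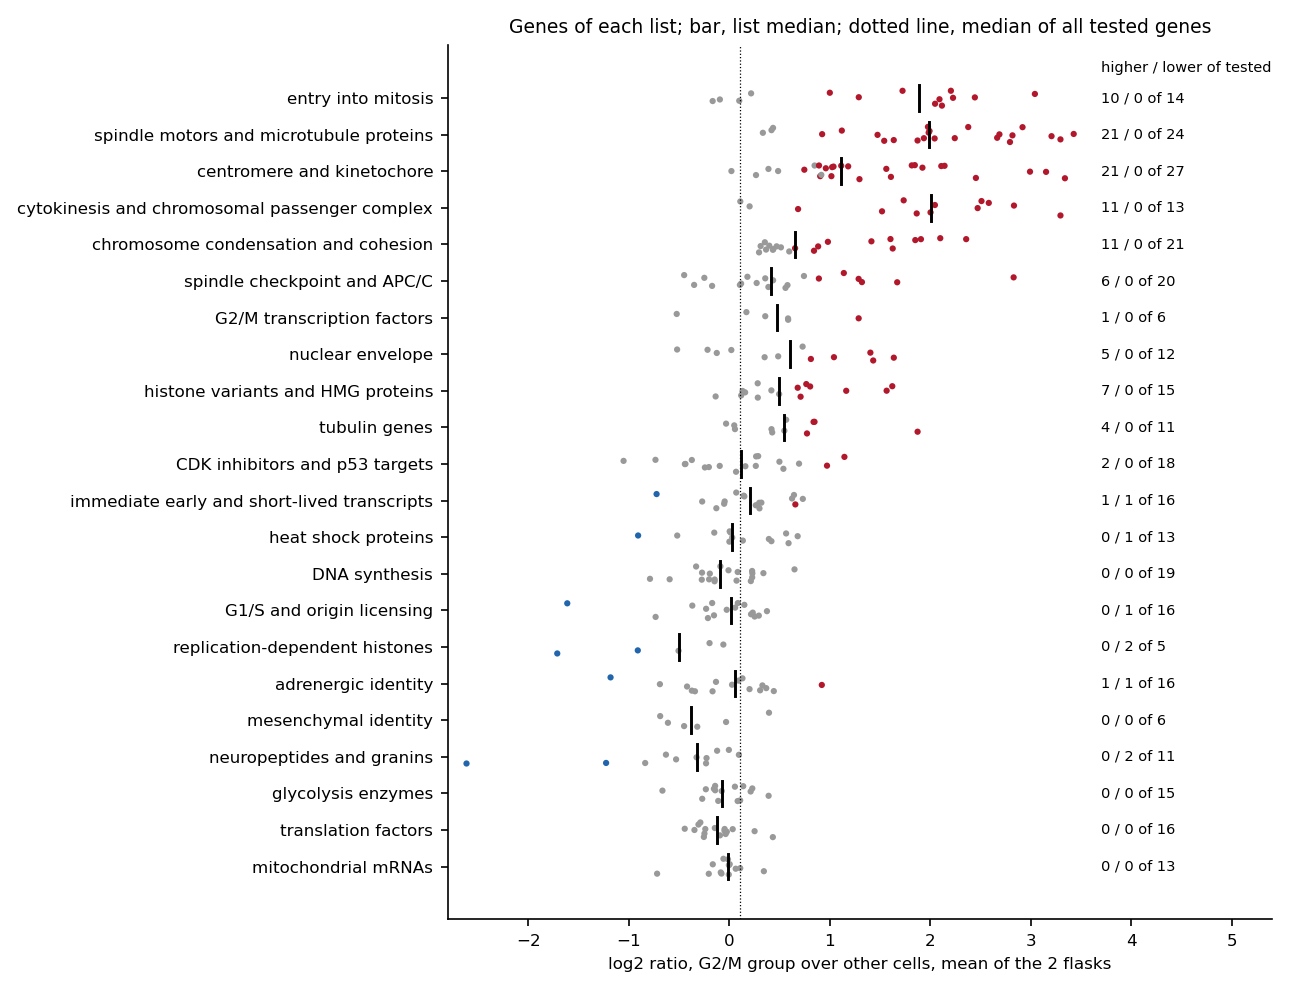
Mean log2 ratio of the 2 flasks for each measured gene of 22 lists, with genes 1.5-fold higher in both flasks in red, genes 1.5-fold lower in both in blue, the list median as a bar and the median of all tested genes (0.11) as a dotted line. At the right stand the genes higher and lower of those measured. Higher were 21 of 24 spindle genes and none of 19 DNA synthesis genes, beside 6.92% of all tested genes. The DNA synthesis count is near that share. Some of the higher genes had under 50 UMIs in the other cells of a flask and were measured only through the members.

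Of 16 measured genes of G1/S and origin licensing none was higher and 1 was lower, counts near the 6.92% and 2.23% of all tested genes, with median log2 ratios of -0.14 in SplitA and 0.23 in SplitB. Of 19 DNA synthesis genes none was called, which is also near those shares, with medians of -0.22 and 0.09, though RFC4 passes as lower with TMM factors. PCNA, the clamp of the replicative polymerases, measured 73.3 and 75.2 against 72.4 and 68.8. CCNE1, cyclin E1 of the G1/S switch, was the 1 gene called lower, with 5 and 3 UMIs in the members, or 6.21 (2.02 to 14.5) and 2.79 (0.574 to 8.14) CPM against 14.7 and 10.98, and these intervals overlap in SplitA. Of 5 measured replication-dependent and linker histone genes, H2AC6 and H1-2 were lower, beside 2.23% of all tested genes, with a list median of -0.50. H2AC6 measured 8.69 and 4.64 against 18.4 and 23.5 and H1-2 17.4 and 27.9 against 38.5 and 44.4. H4C3 measured 1002 and 1012 in the members, but cells high in it had been left out by the rule. The other cells hold G1, S and further G2M cells together, so that a ratio near 1 sets the members beside a mixture.

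The D-type cyclin gene CCND1 measured 854 and 744 against 679 and 627. Of 18 measured CDK inhibitors and p53 targets, CDKN2C and CDKN2D, inhibitors of CDK4 and CDK6, were higher and none was lower, beside 6.92% and 2.23% of all tested genes, and CCND3, cyclin D3, which the list holds although it activates these kinases, passes as lower with TMM factors. CDKN2C measured 150 in the members of each flask against 81.7 and 71.8, and CDKN2D 48.4 and 75.2 against 29.6 and 25.1, the latter lost with TMM factors. CDKN1A, which encodes p21, differed between the flasks. It had 4 UMIs in 4 SplitA members and 40 UMIs in 13 SplitB members, of which 11 came from a single cell, or 4.97 (1.35 to 12.7) and 37.1 (26.5 to 50.6) CPM against 28.1 in the other cells of both flasks.

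Among the lower genes were 2 of the neuropeptide and granin list and 1 of the adrenergic list. CHGA, chromogranin A of the dense-core granule, measured 176 (149 to 208) and 160 (137 to 185.4) CPM in the members against 414 (396 to 432) and 372 (357 to 387) in the other cells, 0.426 and 0.430 of their level. DDC, the decarboxylase of catecholamine synthesis, measured 53.4 and 47.3 against 106 and 122. CARTPT, the gene of the CART neuropeptide, had 1 and 6 UMIs in the members, or 1.24 (0.0314 to 6.92) and 5.57 (2.04 to 12.1) CPM against 13.2 and 19.6. The intervals of these 3 genes lay apart in both flasks. Of 11 neuropeptide and granin genes none was higher and 2 were lower, beside 6.92% and 2.23% of all tested genes, with a median of -0.32, and with TMM factors CHGB, GAL and DLK1 pass as well, of which DLK1, a non-canonical Notch ligand, is neither a neuropeptide nor a granin. GAL, galanin, measured 846 and 1025 against 1293 and 1394.

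The noradrenergic list as a whole lay close to the other cells. Its 20 genes summed to 4126 (3987 to 4269) and 4080 (3960 to 4203) CPM in the members against 4286 and 4145 in the other cells. The transcription factors HAND2, GATA2, GATA3 and PHOX2A had mean log2 ratios from -0.13 to 0.33, none of them called. SOX11, a factor of immature neurons, measured 176 and 184.7 against 96.0 and 94.6 and was the 1 gene of 16 called higher, and DDC the 1 called lower, counts near the 6.92% and 2.23% of all tested genes. DBH, which makes noradrenaline from dopamine, measured 194 and 224 against 349 and 323, log2 ratios of -0.85 and -0.53, and it passes as lower in both flasks with TMM factors and with centring on the median. TH, the first enzyme of the pathway and a defining marker, had 1 and 0 UMIs in the members and measured 1.65 and 1.35 CPM in the other cells, so that it was close to absent from both.

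The 12 lowest genes by mean log2 ratio were SPIN2B, CARTPT, TMEM150A, PGAM2, GNG3, NDUFA4L2, QTRT1, H2AC6, RAB27B, CERS4, CCNE1 and WDR86, and 11 of them had at most 7 UMIs in the members of a flask. NDUFA4L2, a mitochondrial protein known as a target of hypoxia-inducible factor, had more, 8 and 17 UMIs, or 9.93 (4.29 to 19.6) and 15.8 (9.19 to 25.3) CPM against 44.9 and 48.7. Of the 23 lower genes whose intervals lay apart in both flasks, the ferritin light chain FTL had the most UMIs, and it was picked out after its values were seen. It measured 1654 and 1568 against 2583 and 2552. JUNB was the 1 gene called lower of 16 immediate early genes and HSPA5 of 13 heat shock proteins, counts near the 2.23% of all tested genes, JUNB with 41.0 and 40.8 against 68.0 and 66.9 and HSPA5, the chaperone BiP of the endoplasmic reticulum, with 23.6 and 35.3 against 53.4 and 54.8. IER5 was the 1 immediate early gene called higher, near the 6.92% of all tested genes, at a mean log2 ratio of 0.66, and is lost with TMM factors. No gene of glycolysis (15 measured), translation factors (16) or mitochondrial mRNAs (13) was called, with medians of -0.07, -0.12 and -0.01, though MT-ATP8 passes as lower with TMM factors.

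Markers of other cell types were low and no cell of another type was sought. None of 7 blood markers had a UMI in the members, where 3 counts correspond to 3.73 and 2.79 CPM, and the Schwann cell markers had 2 and 4 UMIs in all, most of them S100B. The 7 fibroblast markers summed to 39.7 (27.2 to 56.1) and 55.7 (42.5 to 71.7) CPM against 33.9 and 34.5, with intervals apart in SplitB, PDGFRB (SplitA) and PDGFRA (SplitB) the most abundant, 2 of 7 at 0 and none of 2 measured called. The 16 mesenchymal genes summed to 589 and 770 against 777 and 834, with TWIST1 (SplitA) and S100A6 (SplitB) the most abundant, 5 and 4 at 0 and none of 6 measured called, though S100A6 passes as lower with TMM factors. With 2 and 6 measured genes, having none called is near the 6.92% and 2.23% of all tested genes. The part of these transcripts in the results above was not tested.

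Along the score, all kept cells were set into 7 bins, bin 0 without a UMI of the 8 genes and bins 1 to 6 of equal cell number over both flasks. The summed 18 genes of entry into mitosis measured 596 and 655 CPM in bin 0 of SplitA and SplitB, 1238 and 1335 in bin 4 and 2757 and 2654 in bin 6. The genes of G1/S and origin licensing had their highest level before the last bin, 402 and 423 in bin 0, 913 and 838 in bin 4 and 579 and 695 in bin 6. H4C3 went the same way over a wider range, from 498 and 544 over 5721 and 5335 in bin 4 to 1242 and 1179 in bin 6. These bins hold the H4C3-high cells too. CHGA was at 506 and 443 in bin 0, 465 and 275 in bin 3, 214 and 228 in bin 4 and 177 and 145 in bin 6. Most of its difference was thus there from bin 4 on, while bin 3 of SplitA still lay near bin 0. G2M calls went from 1.4% and 1.5% in bin 0 to 23.6% and 31.3% in bin 4 and 88.2% and 91.4% in bin 6, and S calls were most frequent in bin 4 of SplitA (53.8%) and bin 3 of SplitB (48.2%).

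**Figure D4:**
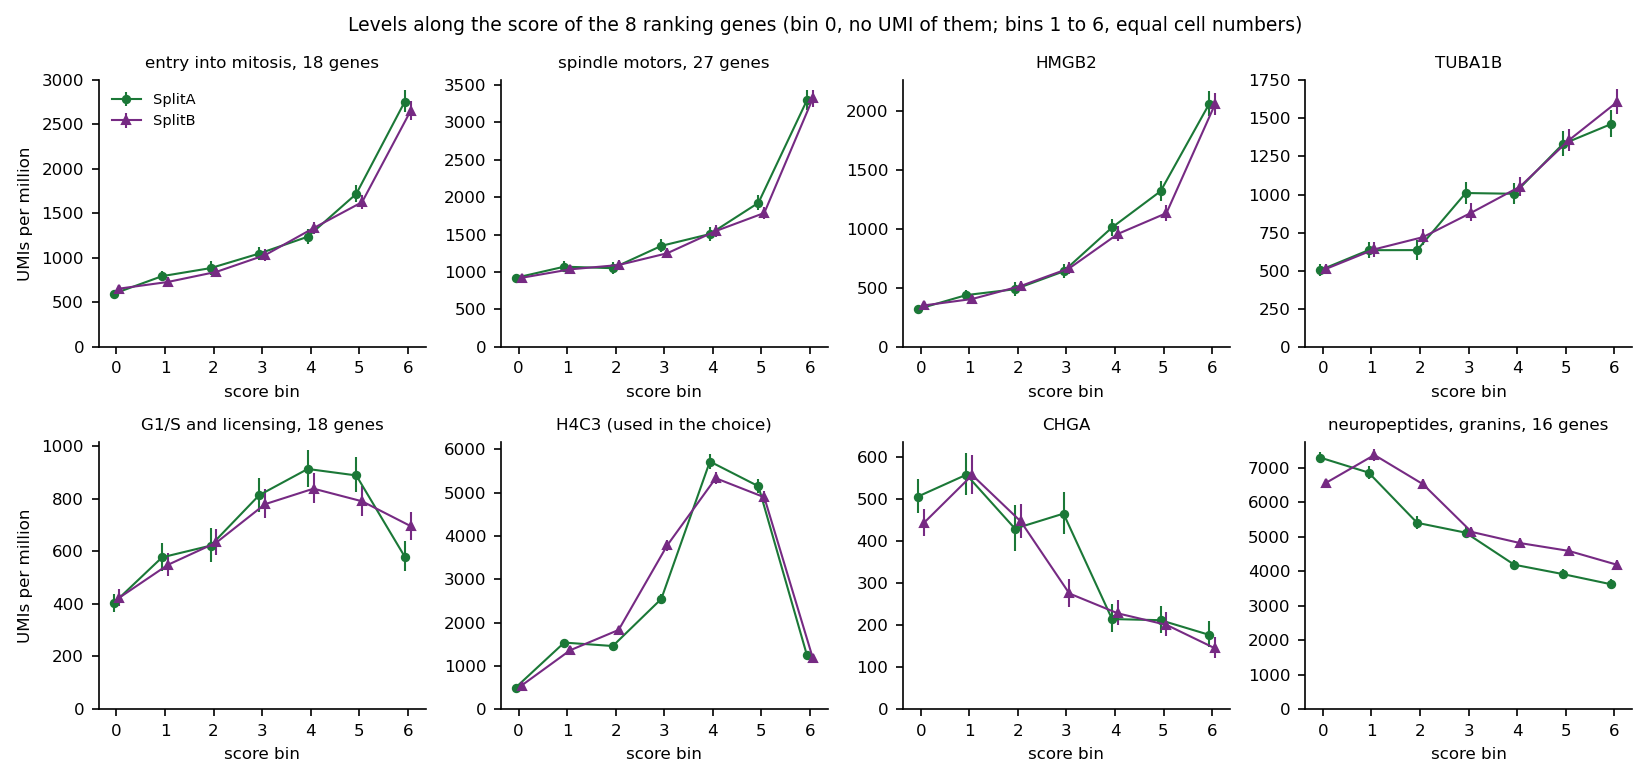
CPM of gene lists and single genes in bins of the score of the 8 ranking genes for SplitA (green) and SplitB (purple), with exact Poisson 95% intervals; bin 0 holds cells without these UMIs and bins 1 to 6 are equal in cell number. Entry and spindle genes, HMGB2 and TUBA1B are highest in bin 6, G1/S genes and H4C3 in bin 4 of both flasks, and CHGA lies between 145 and 228 from bin 4 on.

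The group was set beside the kept cells most like it. These were 192 cells in the top 10% for H4C3 (78 and 114) and 213 cells in the top 15% for the summed MCM2 to MCM7 that belonged to neither group (101 and 112), with 537 and 712 cells as the rest. Both were chosen by measured values, and no test was made. CENPA measured 233 and 241 in the G2/M group, 74.5 and 76.9 in the H4C3-high cells, 41.4 and 13.01 in the MCM-high cells and 18.9 and 17.7 in the rest. UBE2S was at 1742 and 1589, 732 and 654, 658 and 523, and 484 and 481 in the same order. CENPA and UBE2S thus stood apart in the G2/M group in both flasks. CDK1 did so less, at 83.2 and 90.1 against 60.3 and 70.0 in the H4C3-high cells, where the intervals overlap. H2AZ1 did not, since it was at 1720 and 1892 in the G2/M group and 1989 and 1800 in the H4C3-high cells. The summed G2/M transcription factors were higher in the H4C3-high cells, 667 and 654, than in the G2/M group, 513 and 527, with intervals apart. The summed genes of entry into mitosis were higher in the G2/M group, 2610 and 2580 against 1677 and 1625. Centromere and kinetochore genes were closer, at 2178 and 2295 in the G2/M group against 1925 and 1938.

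PCNA went the other way, with 73.3 and 75.2 in the G2/M group, 103 and 124 in the H4C3-high and 148 and 129 in the MCM-high cells, and 53.4 and 51.1 in the rest. CHGA was as low in the H4C3-high cells, 149 and 116, as in the G2/M group, 176 and 160, and stood at 375 and 282 in the MCM-high cells and 462 and 428 in the rest. A low CHGA level was thus found in the H4C3-high cells as well, with intervals that overlap those of the G2/M group. NDUFA4L2 measured 9.93 and 15.8 in the G2/M group, 10.6 and 9.19 in the H4C3-high and 10.3 and 13.01 in the MCM-high cells. In the rest it measured 56.8 and 60.4. CARTPT measured 1.24 and 5.57, 3.55 and 2.30, 2.96 and 2.89, and 16.7 and 24.8 in the same order. Low levels of these genes were thus not particular to the G2/M group. GAL was lower in the H4C3-high cells, 512 and 583, than in the G2/M group, 846 and 1025. Of the H4C3-high cells 59.0% and 57.9% were called G2M, and 16.8% and 7.14% of the MCM-high cells. The MCM-high cells by the same limit counted 288 in all, of which 35 were members.

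**Figure D5:**
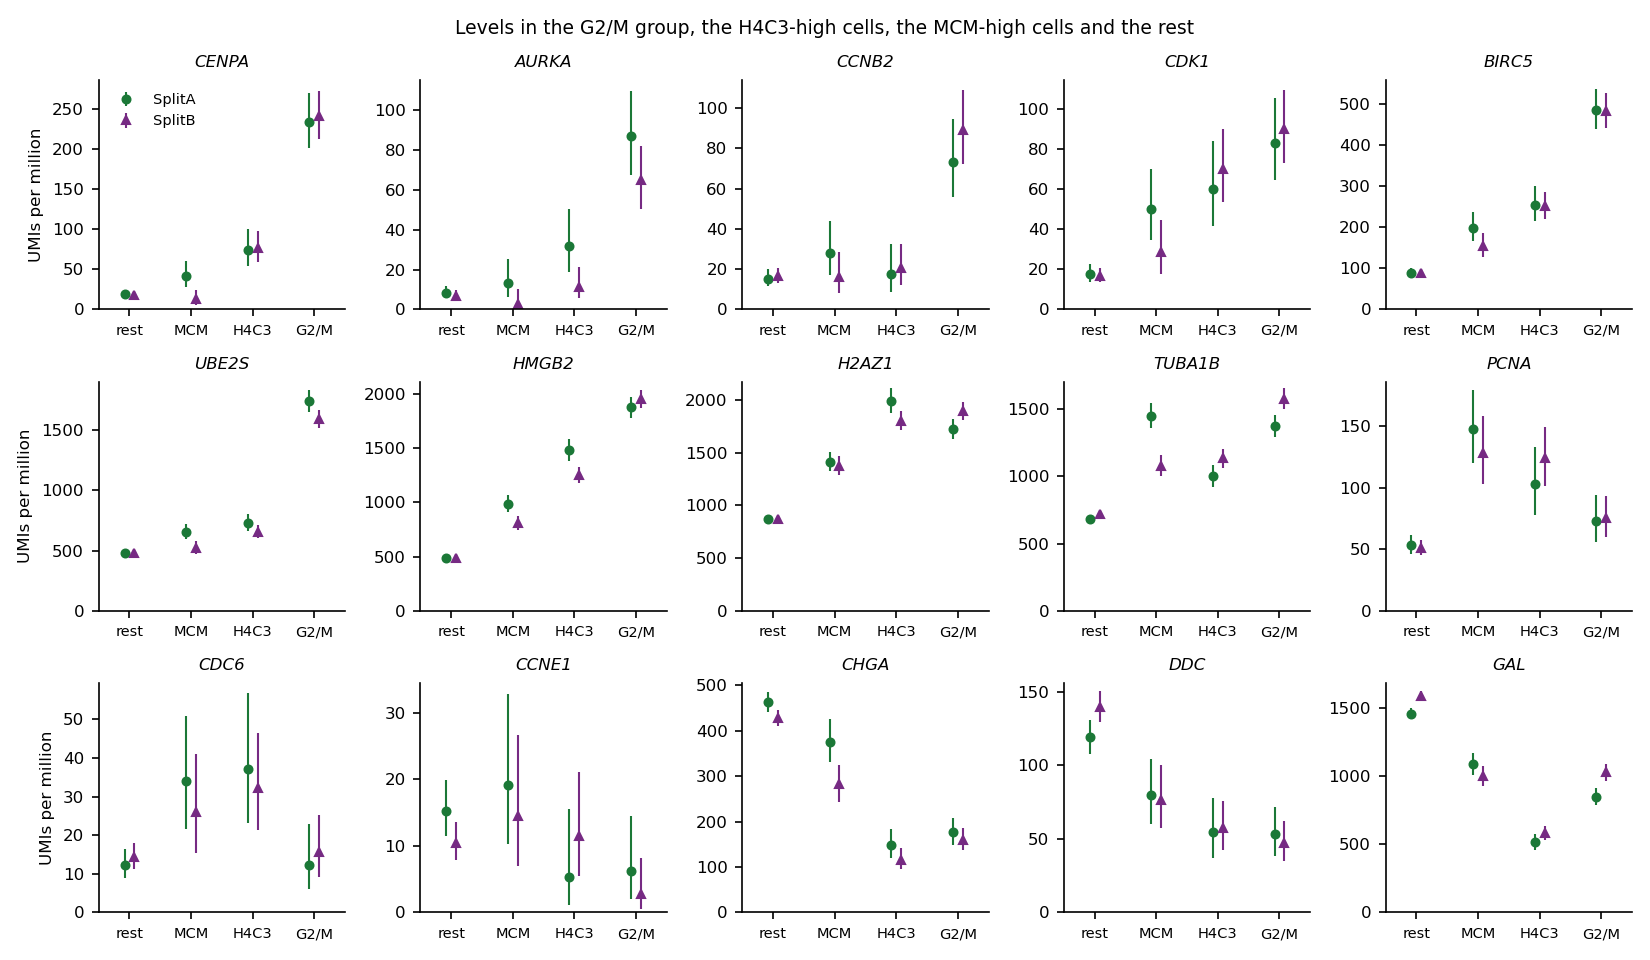
CPM of 15 genes in the rest of the cells, the MCM-high cells, the H4C3-high cells and the G2/M group of SplitA (green circles) and SplitB (purple triangles), with exact Poisson 95% intervals. CENPA, AURKA, CCNB2, BIRC5 and UBE2S are highest in the G2/M group in both flasks, PCNA in the MCM-high cells (with intervals that overlap the H4C3-high cells in both flasks), and CHGA and DDC lie at a like level in the G2/M group and the H4C3-high cells.

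The members were also split at the middle of the score in each flask. Since the same score chose them, this split describes how other genes went with it. It gave 56 and 57 cells in SplitA and 76 and 77 in SplitB. CCNA2 measured 108 (77.4 to 146) and 137 (107 to 174) CPM in the higher-scoring members and 40.0 (23.3 to 64.0) and 55.6 (38.0 to 78.5) in the lower-scoring ones. CKS2 measured 768 and 737 against 372 and 436, and AURKA 116 and 95.7 against 61.2 and 38.2, with intervals that overlap in SplitA. Others differed less, such as UBE2S, with log2 ratios of 0.17 and 0.37, DLGAP5, with 0.74 and 0.27, and the summed G2/M transcription factors, with -0.07 and 0.09. The G1/S genes were summed to 468 and 640 against 680 and 772, with intervals apart in SplitA only, and H4C3 to 670 and 596 against 1299 and 1375. TUBA1B and H2AZ1 differed little, with log2 ratios of 0.21 and 0.20 and of 0.14 and 0.16.

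Across the 266 members of both flasks together, UBE2C and CKS2 had the highest Pearson correlation of UMIs per 10000 among 190 pairs of 20 genes, 0.47, followed by TOP2A with CKS2 at 0.40 and CKS2 with BIRC5 at 0.40. The lowest was CKS2 with TUBA1B at -0.21. These values come from sparse counts of the same cells with a shared total, and they are given as a description.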

How the data were processed

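The data were a table of raw UMI counts per gene and cell deposited by the authors, whole numbers without normalization, with the counts of both hashtags as further rows. Submitters' processing notes name STAR 2.7 and Cell Ranger 4.0.0 with the genome GRCh38. The hashtag barcodes were read from the deposited list, whose name and sequence columns hold no measurement. The labels name both hashtags under the same split, so Hashtag-1 was taken as SplitA after the study's own code. Of 33538 gene identifiers 24935 had a symbol, and 33113 were found in GENCODE 44.

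Cells were assigned to a flask by hashtag, which gave 1179 SplitA cells, 1605 SplitB cells and 95 multiplets. A further 690 assigned cells had under 1000 genes, and 174 were at or over the mitochondrial limit. No doublet caller was run. Counts were summed over the cells of each group and flask and divided by the total UMIs, which gives CPM (UMIs out of 1000000). Exact Poisson and exact binomial (Clopper-Pearson) 95% intervals cover counting error only. A gene was called at 1.5-fold in each flask among genes with at least 50 UMIs over the kept cells of each flask, without the ranking genes and H4C3, whatever its intervals. Genes named were the ranking genes, the 12 highest and the 12 lowest called genes by mean log2 ratio, and members of 26 gene lists. FTL was named in addition, after its values were seen. The members and the lists were chosen with earlier results of these data known. No p-value was computed, since members were selected on the same counts and 2 flasks of a single culture give only the spread between flasks.

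Phases were called in Seurat 5.3.0, TMM factors came from edgeR 4.0.16 in R 4.3.3, and other steps used Python 3.11.15 with numpy 2.4.6, scipy 1.17.1, pandas 2.3.3 and matplotlib 3.10.9. Scripts were tested on simulated data. Cells were thinned at random to 2000 UMIs, which left out 1 cell. Alternatives changed the share of cells taken, the ranking genes, the limits on cells and genes, the fold and the scaling, and centring on the median was added after the data were seen. Promoters were those of RefSeq on GRCh38.p14.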

Additional observations from a re-analysis of the deposited data

Results flagged for a closer look

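Cells that the limits left out also carried the ranking genes, in data outside the comparisons above, given here over both flasks together. Of 174 assigned cells at or over the mitochondrial limit, 32.2% (25.3 to 39.7) reached the lowest score of the top 15%, as did 20.6% (17.6 to 23.8) of 690 assigned cells under 1000 genes and 8.06% (2.67 to 17.8) of the 62 multiplets that passed the limits on genes and mitochondrial share. The share among the kept cells is 15% by construction. The 8 genes measured 1381 CPM in the cells over the mitochondrial limit, 886 in those under 1000 genes and 475 in the multiplets, against 697 in all kept cells. Median UMIs were 2770.5, 1406.5, 8008.5 and 6495 in the same order, and median mitochondrial shares were 27.2%, 35.01%, 9.11% and 8.54%. The part of depth and of the mitochondrial share in these values was not tested.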

How the results depend on the processing

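The genes called, 524 higher and 169 lower, depended on the limits. They were 156 and 49 with every cell thinned to 2000 UMIs before scoring, 279 and 73 with at least 100 UMIs in each flask, and 1230 and 417 with no filter on low counts. With at least 20 UMIs 359 were lower. A 2-fold limit left 159 and 29, a looser fold limit 1335 and 445, and intervals apart 253 and 23. TMM factors gave 289 and 301, and centring on the median, chosen after seeing the data, 334 and 257, so that the share of calls that were higher went from 75.6% to 49.0% and 56.5%. Leaving out a flask gave from 1233 to 1329 higher and from 594 to 633 lower, by construction, since fewer flasks had to pass. After thinning, 90 of the 524 and 17 of the 169 genes were still called, among 3289 tested in place of 7567. The share of cells in the group, 13.8% as the mean of the flasks, was 9.82% for the top 10%, 17.6% for the top 20%, 14.98% with H4C3-high cells kept in, 15.8% after thinning and 13.5% with CCNB1, CDC20, PLK1 and CENPF alone. The share of members called G2M, 87.5%, was 95.7%, 79.1%, 75.4% and 85.5% for the top 10%, the top 20%, thinning before scoring and those 4 genes. It was 84.2% with the other 4 genes, 90.4% with a hashtag limit of 100 counts, 89.7% without the cells with the most UMIs, 92.7% with the full Seurat list and 85.5% after thinning for the phase call only. The ratio of UMIs per cell, 1.08, was 0.990 with no mitochondrial limit. SKA1 and SKA3 reversed after thinning, at log2 ratios of -0.88 and -0.63. Where no construction explains a difference, the cause was not tested. Of 5766 values of 340 named genes, from those of the 26 settings that changed gene ratios, 4458 stayed within the spread of the flasks, 1306 moved and 2 reversed. A change of sign was counted as reversed only for genes called higher or lower in the main comparison. Genes not called could change sign without being counted so, as H3-3A did with TMM factors, at a mean log2 ratio of -0.03. No paired analysis was possible because no result came from a test. The ratios themselves were taken within each flask, between members and other cells of the same flask. Low counts limit the 12 lowest genes, of which 11 had 7 UMIs or fewer in the members of a flask. Over the kept cells of both flasks, the median UMIs were 222 for all lower and 242 for all higher genes.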
